A study of Mus with 6 samples.

Results

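The genes described here encode peroxiredoxins and the enzymes that work beside them against reactive oxygen species, namely Prdx1, Prdx2, Prdx3, Prdx5, Prdx6, Txn1, Gpx1, Sod1, Sod2 and Cat. They were taken by symbol from the annotation of the array, with every probe kept whatever its signal. Of the 10 genes, 8 had a probe listed, 16 probes in all among 45281 on the array, and Prdx5 and Prdx6 were not analysed here.

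RNA came from sorted leukaemic cells of mice in which BCR-ABL p210, a fusion tyrosine kinase, had induced chronic myeloid leukaemia (CML). The strain label was C57BL/6, and cells were taken from bone marrow 14 days after bone marrow transplantation. Sorted cells were green fluorescent, lineage negative, and positive for Sca-1 and c-Kit (LSK), the surface phenotype of stem and early progenitor cells. There were 3 arrays of wild-type (WT) leukaemia and 3 of Klf4-deficient leukaemia, and both groups carried BCR-ABL. Klf4 encodes a zinc finger transcription factor. The labels do not give the way Klf4 was inactivated, the age of the mice, or whether each array stands for a separate mouse, so the p-values measure the spread between these arrays.

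As background, superoxide that leaks from the respiratory chain or is made by oxidases is turned into hydrogen peroxide by superoxide dismutases. Hydrogen peroxide is then removed by peroxiredoxins, glutathione peroxidases and catalase. Peroxiredoxins use a reactive cysteine that thioredoxin reduces again, whereas glutathione peroxidases draw on glutathione and catalase needs no partner. In blood formation, stem cells are known to be sensitive to reactive oxygen species, and red cells hold large amounts of peroxiredoxin 2, catalase and glutathione peroxidase 1.

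Values are background-subtracted probe intensities, which can be negative. A probe was counted as measured on an array when it exceeded 32, and lower values were set to 32 before the log2 was taken. Between 7082 and 7214 probes exceeded 32 on each array, 15.6% to 15.9%. Klf4 itself exceeded 32 on 1 of 6 arrays on 1 of its 3 probes (51.9 in WT replicate 2), so the array gives no check of the knockout labels. Of the genes that define the sort gate, Kit exceeded 32 on its brightest probe in WT replicate 3 (381.5) and in Klf4-deficient replicates 1 and 3 (118.1 and 63.1), and on a second probe in WT replicate 2 (258.5) and Klf4-deficient replicate 1 (67.6). Ly6a, which encodes Sca-1, was not analysed here. Cd34 exceeded 32 on 1 array only, at 43.2 in Klf4-deficient replicate 3.

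WT replicate 3 stood apart from the other 5 arrays, and the antioxidant genes were part of that. Across the 18270 probes above 32 on at least 1 array, it correlated with the others at Pearson r = 0.29 to 0.30, against 0.66 to 0.72 among those 5. These correlations are across probes, which are not independent replicates. WT replicate 3 had 3 of the 16 antioxidant probes above 32, where WT replicates 1 and 2 had 10 and 9 and each Klf4-deficient array had 9. Of 7 antioxidant probes above 32 on all other arrays, 6 were at or below 32 in WT replicate 3. The same was true of 54.9% of the 2657 probes of the whole array that exceeded 32 on the other 5. Each of the other arrays lacked 5.08% to 7.28% of the probes measured on the remaining ones. Those bases were smaller, 1261 to 1291 probes, because the remaining arrays then included WT replicate 3. The percentages are thus not over the same set of probes. The comparisons are therefore given with and without that array.

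**Figure D1:**
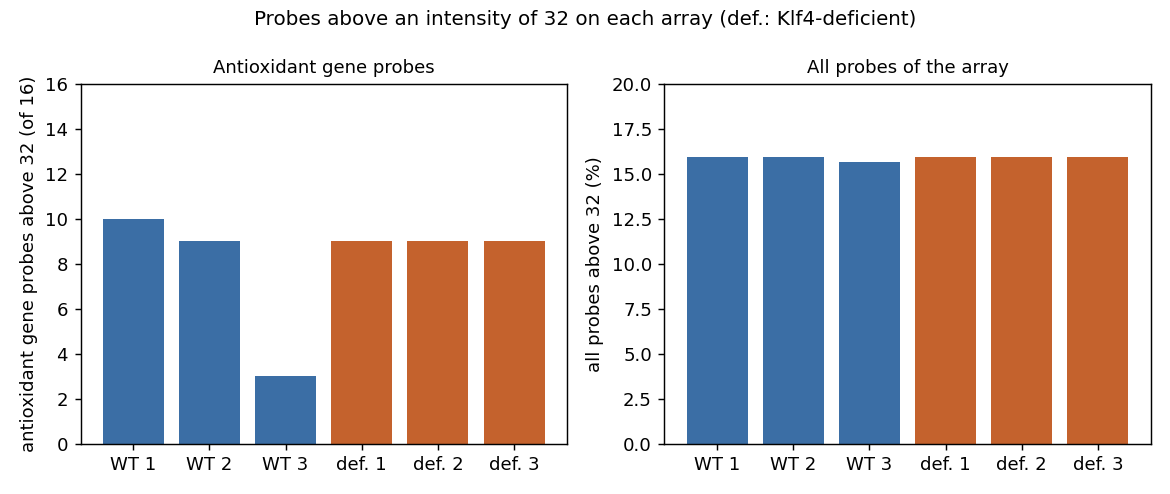
Number of antioxidant gene probes (left, of 16) and percentage of all probes (right) above an intensity of 32 on each array, WT in blue and Klf4-deficient (def.) in orange. WT replicate 3 has 3 antioxidant probes above 32 against 9 or 10 on the other arrays. The share of all probes above 32 lies between 15.6% and 15.9% throughout. A scaling of the arrays before deposit could make these shares alike, so they do not show that total signal was equal.

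Of the 16 antioxidant probes, 11 exceeded 32 on at least 1 array and were tested, at least 1 for each of the 8 genes. None passed the test: 0 of 11 had an adjusted p under 0.05 in limma, as had 0 (0%) of all 18270 probes tested. The adjusted p-values of the 11 probes lay between 0.71 and 0.99. At an unadjusted p under 0.05 there was 1 antioxidant probe, against 2.03% of all probes tested. The 3 Klf4-deficient values did not overlap the 3 WT values for 3 of the 11 probes, against 3.09% of all probes tested. Of these, 2 were Prdx2 probes higher in Klf4-deficient arrays, against 2.13% of all probes in that direction, and 1 was a Cat probe, lower, against 0.958%. A probe can separate in this way only if it exceeds 32 on at least 3 arrays, and among such probes the count was 3 of 10 for the antioxidant genes and 8.78% over the whole array. The 2 separated Prdx2 probes report on the same gene.

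**Figure D2:**
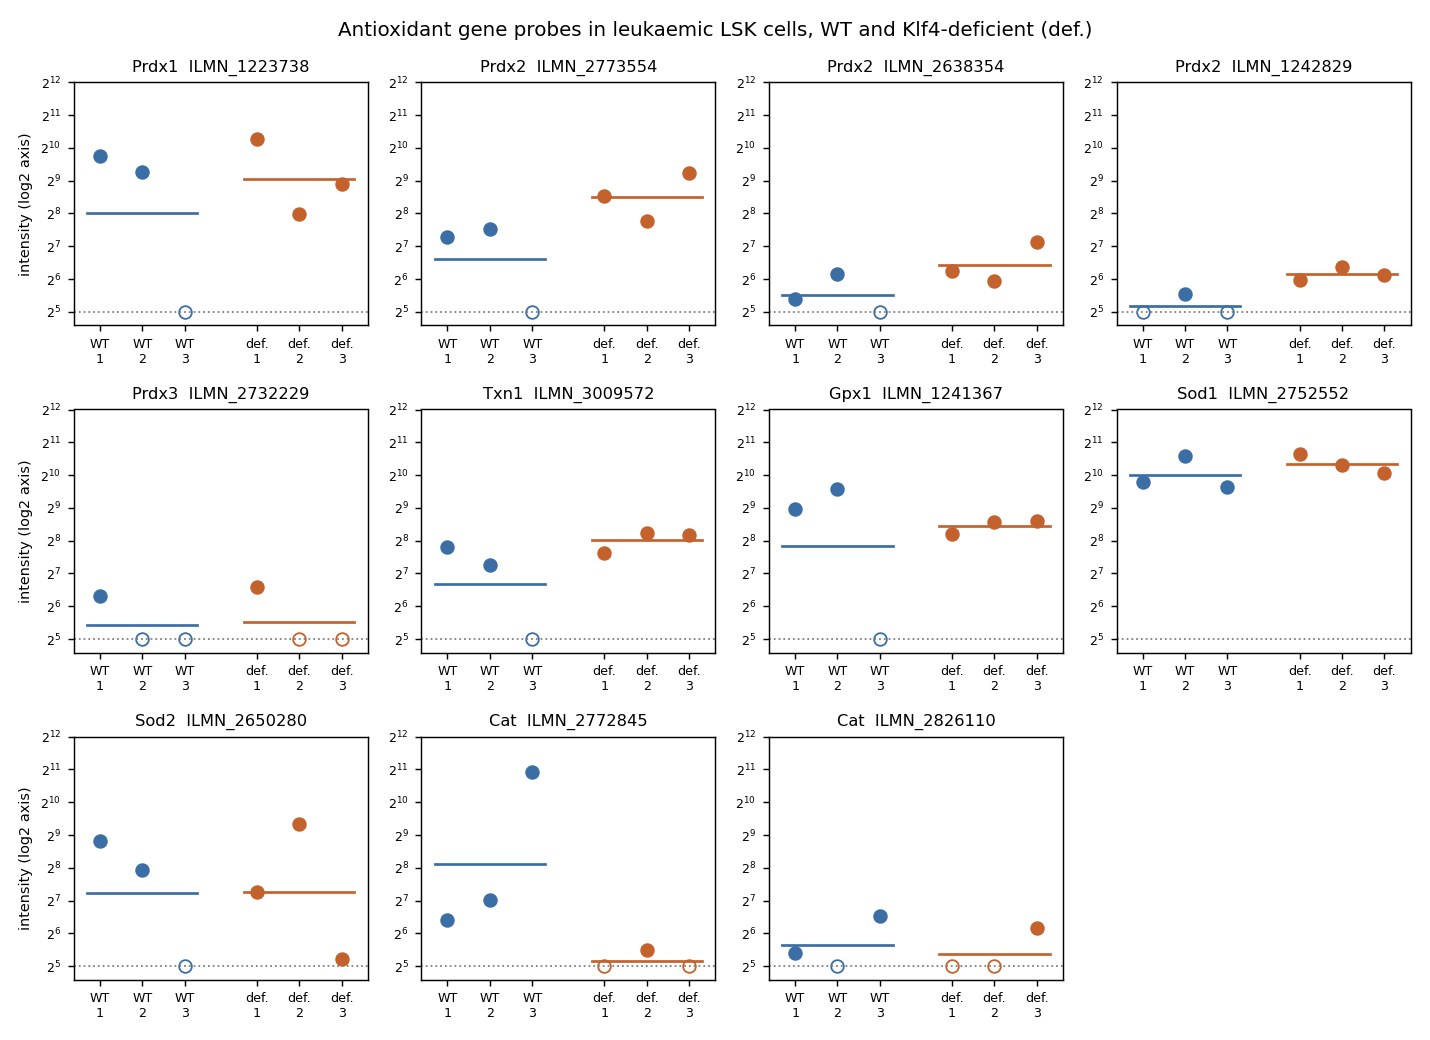
Intensity of the 11 tested antioxidant gene probes on each array (log2 axis), WT in blue and Klf4-deficient (def.) in orange, with open circles for values at or below 32 (dotted line) and horizontal bars for the group means of the log2 values. WT replicate 3 is at the floor for Prdx1, Prdx2, Txn1, Gpx1 and Sod2, and at 1937.4 for the brighter Cat probe.

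Among the peroxiredoxins, Prdx2 was the 1 gene with probes whose groups did not overlap. Prdx2 encodes a cytosolic peroxiredoxin that is among the most abundant proteins of red cells. Its brightest probe, ILMN_2773554, read 155.6, 183.9 and 9.6 in the WT arrays against 368.1, 219.5 and 607.9 in the Klf4-deficient ones. All Klf4-deficient values lay above all WT values, with WT replicate 3 below the floor. The difference between Klf4-deficient and WT was 1.92 ± 0.81 (log2, SE, n = 3 per group; 95% interval -0.14 to 3.97; adjusted p = 0.71), a ratio of 3.77. Without WT replicate 3 it was 1.11 ± 0.50 (adjusted p = 0.84), and the groups still did not overlap.

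The second separated Prdx2 probe, ILMN_1242829, read 7, 46.8 and -8.3 in the WT arrays against 62.2, 82.4 and 70 in the Klf4-deficient ones. It was measured on 1 of 3 WT arrays and on all Klf4-deficient arrays, so the fitted difference, 0.97 ± 0.24 (95% interval 0.36 to 1.58), understates the gap. This probe had the smallest unadjusted limma p of the antioxidant probes, 0.0093, which became 0.71 after adjustment over all probes. The remaining Prdx2 probe, ILMN_2638354, read 42.3, 70.9 and 22.8 in the WT arrays against 76.5, 61.6 and 139.4 in the Klf4-deficient ones. Its groups overlapped at WT replicate 2 and Klf4-deficient replicate 2, with a difference of 0.93 ± 0.45 (adjusted p = 0.71). All 3 Prdx2 probes had a mean difference above 0, also without WT replicate 3 (1.11, 0.67 and 0.88).

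Erythroid markers were examined beside Prdx2 because of its abundance in red cells. Of 10 erythroid marker genes, 8 had a probe and 7 exceeded 32 on some array, 5 with a difference above 0 and 2 below. The summed intensity of their brightest probes ran from 2113 to 3662.1 in WT and from 3868.6 to 4612.4 in Klf4-deficient arrays, so the groups did not overlap. Genes whose own groups overlapped entered these sums with large values. Tfrc read 126.2, 95.9 and 1044 in the WT arrays against 1194.6, 551.3 and 163.2 in the Klf4-deficient ones. Hba-a1 read 686.2, 1996.1 and 74.5 against 1515.8, 1762.7 and 1691.6. Sums without overlap were not found for the erythroid list alone. The T and NK cell sum (39.2 to 61.7 in WT, 167.3 to 289.8 in Klf4-deficient arrays) and the eosinophil sum (0 to 4 and 76.7 to 140.6) also lay higher without overlap. Of the 2 eosinophil genes, this held for Prg2 by itself (-6.3, -3.2 and 4 against 67.8, 43.9 and 110.3), while Epx overlapped. In the T and NK cell list the same held for the brighter Thy1 probe (24.4, 26 and -7 against 113, 187.2 and 146). The other Thy1 probe, near background (-8.9 to 34.6), overlapped, as did Cd3e, Cd3g and Nkg7. The monocyte and macrophage sum lay lower (51.5 to 304.7 and 27 to 49.2), but by a narrow margin near background. In WT replicate 2, at 51.5, no gene of that list exceeded 32, and the groups of Csf1r overlapped. Alas2, the first enzyme of haem synthesis in erythroid cells, read 8.8, 26.1 and -15 in the WT arrays against 172, 114.1 and 160.7 in the Klf4-deficient ones, at least 4.58-fold higher (adjusted p = 0.59). Of the other erythroid genes, Gata1 (-0.38) and Car2 (-0.42) had a mean difference below 0 on their brightest probes. On the brightest probes the groups overlapped for Klf1, Gata1, Tfrc, Slc4a1, Car2 and Hba-a1. A dimmer Tfrc probe lay higher without overlap (1.54), and Epor was above 32 on no array. Catalase and glutathione peroxidase 1 are also held in large amounts by red cells. The brighter Cat probe had a difference of -2.95 and Gpx1 of 0.61, or -1.55 and -0.81 without WT replicate 3. The dimmer Cat probe had -0.26, or 0.18 without that array. The part of the erythroid genes in the Prdx2, Cat and Gpx1 values was not tested. In such bulk RNA, fewer cells of a type and less RNA per cell cannot be told apart.

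Prdx1 encodes a cytosolic peroxiredoxin closely related to Prdx2, and its groups overlapped. Its brighter probe, ILMN_1223738, read 868.6, 618.7 and -15.3 in the WT arrays against 1242, 250.7 and 476.3 in the Klf4-deficient ones. WT replicates 1 and 2 lay inside the range of the Klf4-deficient arrays, and WT replicate 3 was at background. The difference was 1.04 ± 1.46 (log2, SE, n = 3 per group; adjusted p = 0.74) and turned to -0.47 ± 0.76 without WT replicate 3. The other Prdx1 probe was below 32 on all arrays, between -6.7 and 29.2.

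Prdx3, the mitochondrial peroxiredoxin, was measured on 2 of 6 arrays. It read 78.8, -17.6 and -3.7 in the WT arrays against 97, 6 and -8 in the Klf4-deficient ones, that is, above the floor in replicate 1 of each group only. The difference of 0.10 ± 0.62 had a 95% interval of -1.47 to 1.67, and a difference was not detectable at this signal.

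Txn1, the cytosolic thioredoxin that returns electrons to peroxiredoxins, had 1 probe above 32. That probe, ILMN_3009572, read 223.8, 152.6 and 0.2 in the WT arrays against 198.2, 298.2 and 289.7 in the Klf4-deficient ones. WT replicate 1 lay above Klf4-deficient replicate 1, so the groups overlapped. The difference was 1.32 ± 0.78 (log2, SE, n = 3 per group; adjusted p = 0.71), and 0.48 ± 0.32 without WT replicate 3. The other 2 Txn1 probes did not exceed 11.4 on any array.

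Gpx1, the selenium-dependent glutathione peroxidase of cytosol and mitochondria, had a difference whose sign depended on WT replicate 3. Its 1 probe read 504.1, 760.8 and 20.4 in the WT arrays against 293, 382.4 and 391.2 in the Klf4-deficient ones. The 3 Klf4-deficient values lay close together, below WT replicates 1 and 2 and above WT replicate 3. Over all arrays the difference was 0.61 ± 1.27 (log2, SE, n = 3 per group; adjusted p = 0.82). Without WT replicate 3 it was -0.81 ± 0.30 (95% interval -1.62 to -0.01; unadjusted p = 0.049, adjusted p = 0.84), with all Klf4-deficient values below both WT values.

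The superoxide dismutases differed in how evenly they were measured. Sod1, the copper and zinc enzyme of the cytosol, was the 1 gene here with a probe above 32 on all 6 arrays. That probe, ILMN_2752552, read 887.6, 1535.5 and 803.3 in the WT arrays against 1599.8, 1266.7 and 1060.3 in the Klf4-deficient ones. WT replicate 3 gave the lowest value, close to that of WT replicate 1, and the groups overlapped. The log2 means were 10.01 ± 0.50 (SD, n = 3) in WT and 10.33 ± 0.30 in Klf4-deficient arrays. The difference of 0.32 ± 0.33 (SE; adjusted p = 0.71) had a 95% interval of -0.51 to 1.16, and was 0.14 ± 0.36 without WT replicate 3. The other 2 Sod1 probes lay between -16.1 and 0.5 on all arrays.

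Sod2, the manganese enzyme of the mitochondrial matrix, varied widely within both groups. Its probe read 449.5, 243.2 and -2.9 in the WT arrays against 153.7, 640.1 and 37.3 in the Klf4-deficient ones. The highest and the lowest measured values were thus both in Klf4-deficient arrays, and WT replicate 3 was below the floor. The difference was 0.02 ± 1.45 (log2, SE, n = 3 per group; 95% interval -3.66 to 3.71) and turned to -1.10 ± 1.32 without WT replicate 3. It was -1.004 without Klf4-deficient replicate 2.

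Cat, which encodes catalase, the haem enzyme of peroxisomes, was the 1 gene of the 8 whose brightest probe had a mean difference below 0. That probe, ILMN_2772845, read 85.2, 129.3 and 1937.4 in the WT arrays against 17, 44.8 and 31.2 in the Klf4-deficient ones. All WT values lay above all Klf4-deficient values, of which 1 exceeded 32, and WT replicate 3 was the highest by far. The difference was -2.95 ± 1.25 (log2, SE, n = 3 per group; 95% interval -6.13 to 0.23; adjusted p = 0.71), or 7.75-fold lower with the floor applied. Without WT replicate 3 it was -1.55 ± 0.31 (95% interval -2.40 to -0.70; unadjusted p = 0.0066, adjusted p = 0.72), and the groups still did not overlap.

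The second Cat probe, ILMN_2826110, did not separate the groups. It read 42.6, 3.7 and 92.1 in the WT arrays against 17.9, 31.3 and 71 in the Klf4-deficient ones, a difference of -0.26 ± 0.54 that turned to 0.18 ± 0.47 without WT replicate 3. Both Cat probes were highest in WT replicate 3. Marker sums of other myeloid cells did not all follow Cat. The monocyte and macrophage sum over 5 genes with a probe was 304.7 in WT replicate 3 against 27 to 110.9 elsewhere, carried by Csf1r, the receptor for macrophage colony-stimulating factor, at 274.3, while Ccr2, Fcgr1 and Irf8 were above 32 on no array. The mast cell and basophil sum was lowest there, at 1204.5 against 2306.9 to 3464.2, but this depended on the Cpa3 probe used. The brightest Cpa3 probe, which entered the sum, read 551.5 in WT replicate 3 against 991.9 to 1435.6. The next read 567.4 against 728.9 to 1060.3. The dimmest Cpa3 probe was instead highest in WT replicate 3, at 2347.6 against 193.9 to 613.4. The neutrophil lineage sum over 12 genes was 7801 against 2232.8 to 4332.8, but 1 probe of Mpo, myeloperoxidase, gave 7153.2 of it. Without Mpo the sum of the other 11 genes was lowest in WT replicate 3, at 647.8 against 724.2 to 1847.2, and Ngp and Fcnb were above 32 on no array. Ctsg, which encodes the granule protease cathepsin G, read 8.8 in WT replicate 3 against 165.4 to 573.1, and S100a9, a calcium-binding protein of neutrophils, read 2.9 against 35.2 to 986.3. Other neutrophil lineage probes went the opposite way. Ltf was highest in WT replicate 3, at 291.9 against 14.1 to 53.4, and so was a second Mpo probe, at 1224.2 against 320 to 952.6. The remaining Mpo probes did not follow: ILMN_2719256 was lowest in WT replicate 3, at 13.6 against 164 to 697.7. ILMN_2925094, at 137.9, lay within the range of the other arrays (92.8 to 480.2). The brighter Ms4a3 probe, at 236.7, also lay within the range of the other arrays, and the dimmer was lowest, at -9.4 against 38.9 to 276.8. The part of these cells in the Cat values was not tested.

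**Figure D3:**
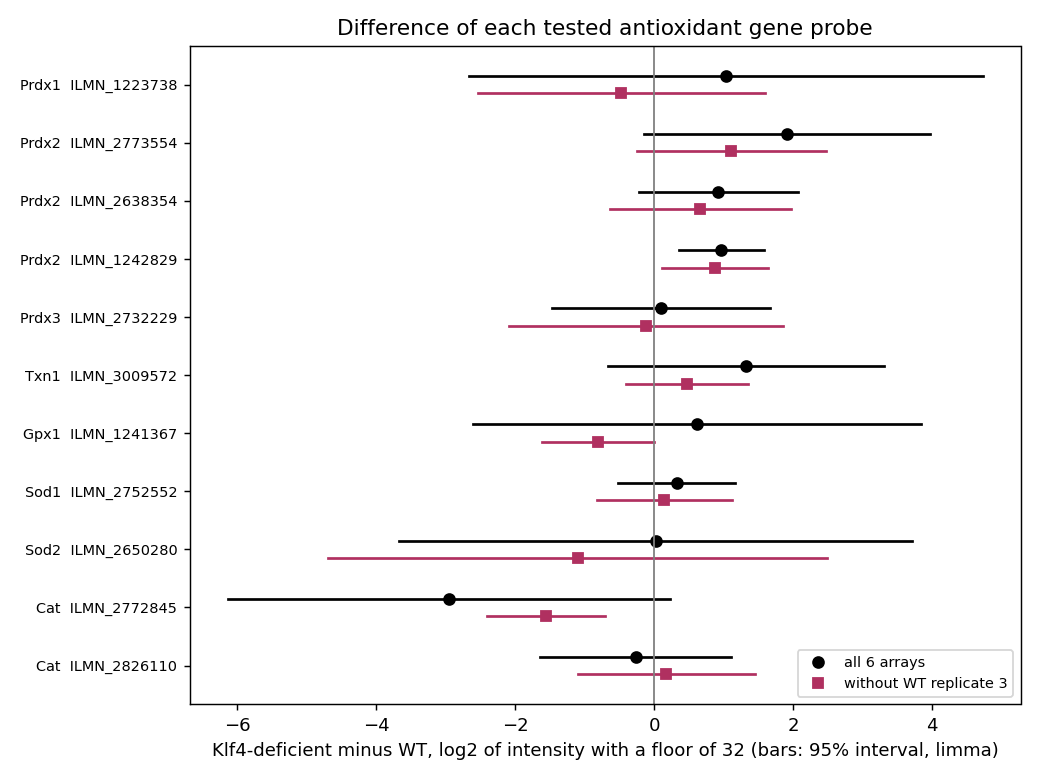
Difference between Klf4-deficient and WT for the 11 tested antioxidant gene probes (log2 of intensity with a floor of 32, points with 95% intervals from limma), over all 6 arrays (black) and without WT replicate 3 (red squares). The 3 Prdx2 probes and the brighter Cat probe keep their sides of 0, while Prdx1, Prdx3, Gpx1, Sod2 and the dimmer Cat probe change sign.

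Over the 11 tested probes, 9 had a mean difference above 0, with a median of 0.61 (log2). Of all 18270 probes tested, 45.8% had a difference above 0, and the median was -0.05. Without WT replicate 3 the same 11 probes split into 6 above and 5 below 0, with a median of 0.14 against 0.06 over the 14950 probes then tested. In that comparison of 3 Klf4-deficient with 2 WT arrays, the groups did not overlap for 4 of the 11 probes, against 8.47% of all probes tested. These were 2 Prdx2 probes, higher in Klf4-deficient arrays, against 3.36% of all probes in that direction, and 2 probes of Gpx1 and Cat, lower, against 5.1%. None of the 14950 probes was called in limma, and 532 had an unadjusted p under 0.05.

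How the antioxidant genes varied together across arrays also depended on WT replicate 3. Over 6 arrays, Pearson r was 0.86 between Gpx1 and Txn1, 0.86 between Gpx1 and Prdx1, and -0.80 between Gpx1 and the brighter Cat probe. Over the 5 arrays without WT replicate 3 these were -0.58, -0.09 and 0.94. The brightest Prdx2 probe and the brighter Cat probe ran opposite in both cases, at -0.95 and -0.82, and the brightest Prdx2 probe and ILMN_2638354 ran together at 0.91 and 0.92. These are descriptions over few arrays, which may share a scaling of their intensities. Of the 1197 probes above 32 on all 6 arrays, those most like the Sod1 probe by Pearson r over the 6 arrays and named for another gene were of Slc6a15 (0.99), Rps3a1 (0.97), Tyms-ps (0.94), G3bp2 (0.93) and Kdm7a (0.93).

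The wider pathway was described with 46 further genes of the peroxiredoxin, thioredoxin and glutathione systems, the NRF2 response, methionine sulfoxide reduction and the NADPH oxidase. Of these, 43 had a probe (89 probes), and 48 probes of 33 genes exceeded 32 on at least 1 array. In limma, 0 of the 48 passed the test in either direction, and 1 had an unadjusted p under 0.05. Differences above 0 were found for 32 of the 48 probes and below 0 for 16, with a median of 0.26. The groups did not overlap for 1 of the 48 probes (2.08%, against 3.09% of all probes tested). Without WT replicate 3, 43 probes were tested, 29 above and 14 below 0, with a median of 0.14.

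The 1 separated probe belonged to Gsto1, an omega class glutathione transferase. It read -1.1, 35.1 and -11.5 in the WT arrays against 130.1, 50.1 and 158 in the Klf4-deficient ones, with 1 of 3 WT values above the floor. The difference was 1.61 ± 0.47 (log2, SE, n = 3 per group; unadjusted p = 0.018, adjusted p = 0.71) and 1.59 ± 0.58 without WT replicate 3.

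The brightest of the 89 probes were of the ferritin chains, which store iron. The Fth1 probe ILMN_2876066 read 1547.1, 2142.3 and 13.1 in the WT arrays against 1969.5, 1801.6 and 1801.6 in the Klf4-deficient ones. The other Fth1 probe read 1394.6, 2056.1 and 84.1 in the WT arrays against 1639.8, 2134.5 and 1869.9 in the Klf4-deficient ones. On both probes WT replicates 1 and 2 lay within the Klf4-deficient range or close to it, and WT replicate 3 far below. The differences were 1.97 ± 1.71 and 1.59 ± 1.28 (log2, SE, n = 3 per group; adjusted p = 0.71 each), and 0.03 and 0.14 without WT replicate 3. Ftl1 read 645.4, 791.6 and 752.8 in the WT arrays against 269.2, 1325.8 and 1038.9 in the Klf4-deficient ones. Its difference was -0.02 ± 0.65, and WT replicate 3 did not stand out for this gene.

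The regulators of the NRF2 response were above 32 on few arrays. The brighter probe of Nfe2l2, which encodes NRF2, an activator of many antioxidant genes, read 20.3, 32.2 and 0.1 in the WT arrays against -10, 54.1 and -15 in the Klf4-deficient ones. The brightest probe of Keap1, the adaptor that directs NRF2 to degradation, read 104.8, 12.7 and 6.8 in the WT arrays against 234, -2.6 and 20.9 in the Klf4-deficient ones, above the floor in replicate 1 of each group only. Of 2 common NRF2 targets, Nqo1 was below 32 on all arrays on both probes. The other, haem oxygenase 1 (Hmox1), read 211.7, 43.3 and -9.9 in the WT arrays against 44.6, 182.6 and 105.6 in the Klf4-deficient ones, so its groups overlapped.

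**Figure D4:**
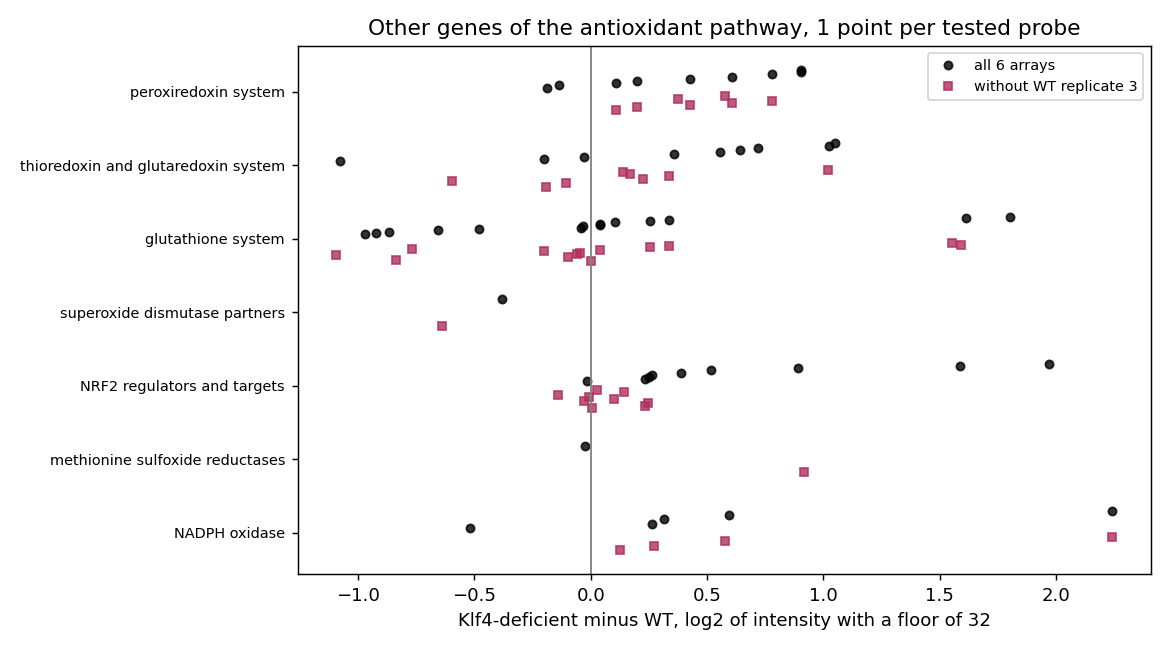
Difference between Klf4-deficient and WT (log2 of intensity with a floor of 32) for the 48 tested probes of further antioxidant pathway genes, by class, over all 6 arrays (black) and without WT replicate 3 (red squares, 43 probes). Both Fth1 probes, the 2 rightmost black points of the NRF2 class at 1.59 and 1.97, move to 0.14 and 0.03, in that order, without that array, while the Gsto1 difference stays at 1.59.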

How the data were processed

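The deposited values are intensities of one-colour Illumina mouse bead arrays. The submitters' processing notes name BeadStudio. No source used here gives its version, background method or normalization. Intensities lay between -31 and 37007.2, so background had been subtracted. Column medians (1.6 to 1.7) and counts of probes above 32 (7082 to 7214) were nearly equal, so the arrays may have been scaled before deposit. Such scaling would hide differences in total RNA. Probe sequences, slides and scan dates were not used here, so cross-hybridisation with related genes or pseudogenes was not examined.

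No further normalization was applied. Values under 32 were set to 32 and log2 was taken. Each probe above 32 on at least 1 array (18270) was fitted in limma 3.58.1 (lmFit, eBayes; R 4.3.3), Klf4-deficient against WT, without a replicate block, with Benjamini-Hochberg adjustment over all probes and a threshold of 0.05. Gene names came from the platform's annotation, brought up to date by Entrez number: 34885 had 1 symbol, 18 several, and 10378 were not listed. Alternatives varied the floor, filter, centring, variance model, probe summary, replicate block and arrays used. Genes and lists were chosen with earlier results of these data known. Of the further pathway genes, the text names separated probes (up to 5 per direction), the 3 brightest, and Nfe2l2, Keap1, Hmox1 and Nqo1. Genes like Sod1 are the 5 with the highest r. Markers are given as counts and sums of each gene's brightest probe, negative values counted as 0.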

Additional observations from a re-analysis of the deposited data

How the results depend on the processing

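No antioxidant probe and no further pathway probe was called under any of the 16 alternatives. Over the whole array, 0 probes were called except 1 without a filter, 2 with a floor of 64 and 1 when a gene's probes were averaged. Of 169 alternative values for the antioxidant probes, 159 kept their direction, among them all of both separated Prdx2 probes (1.11 to 2.38 and 0.16 to 1.63) and of the brighter Cat probe (-3.81 to -1.55). Their adjusted p was never below 0.43. Another 7 values could not be had, where a stricter filter or 1 value per gene left a probe out. Without WT replicate 3, directions turned for Prdx1 (-0.47), Prdx3 (-0.12), Gpx1 (-0.81), Sod2 (-1.10) and the dimmer Cat probe (0.18). Of the further pathway genes, only Gsto1, Fth1 and Ftl1 were followed through all alternatives, and Ftl1 turned (0.0073). Others turned too without that array, among them Hmox1 (-0.0098), a Keap1 probe (-0.030), Txnrd1 (-0.60) and Park7 (-0.14). The same held for a Gpx4 probe (-0.77), a Gstp1 probe (-0.20), Msrb1 (0.91) and a Slc7a11 probe (0.0030). Leaving out each array in turn gave -0.47 to 1.91 for Prdx1, -0.43 to 0.53 for Prdx3, -0.81 to 1.47 for Gpx1, -1.10 to 1.05 for Sod2, -0.65 to 0.18 for the dimmer Cat probe and -0.46 to 0.69 for Ftl1. Prdx3 was also below 0 without WT replicate 2 (-0.12) or Klf4-deficient replicate 1 (-0.43), and Sod2 without Klf4-deficient replicate 2 (-1.004). Ftl1 was above 0 without WT replicate 2 (0.04) or Klf4-deficient replicate 1 (0.69). Sod2 was -0.051 with a floor of 64, and the dimmer Cat probe 0.054 with an offset of 16. Centring on the probes above 32 on all arrays moved every difference by 0.16 (log2), which turned Ftl1 to 0.14. The cause of these turns was not tested.

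With the replicate block, 0 probes were called (362 at an unadjusted p under 0.05). Deviations from the group means correlated at 0.03, 0.04 and 0.04 for same-numbered arrays, each higher than with other numbers. Correlations this close to 0 cannot show whether same-numbered arrays were paired. Signal limits the result: 5 of the 16 antioxidant probes never exceeded 32, and 1 did so on all arrays.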
